A study of Mus musculus with 12 samples.

Results

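Pax5, Ebf1, Bach2, Bcl6, Spib, Spi1, Ets1, Ikzf3, Pou2f2 and Pou2af1 are the transcription factor genes commonly listed as those that keep B cell identity, and their RNA was followed from the naive B cell to the plasmablast. They were chosen by name, matched to the count table by Entrez gene number, and are 10 of its 27179 genes. All 10 passed the filter on low counts and are 10 of the 12767 genes tested. The cells were splenic B cells of C57BL/6 mice per the labels, males on a C57BL/6 Pep3b background of 6 to 12 weeks per the study's methods, with no gene altered according to the labels. There were 6 stages with 2 biological replicate libraries each. Naive B cells were sorted fresh by surface markers, among them IgM and a high level of IgD, and were not treated. The other stages were cultured with 25 µg/ml lipopolysaccharide (LPS), a bacterial wall component that activates B cells through a Toll-like receptor. Undivided cells, which kept the highest level of a dye that is diluted at each division and carried the activation marker CD69, were sorted 3, 10 and 33 h after LPS. On day 4 the expanded B cells (CD22+ CD138-) and the plasmablasts (CD22- CD138+), which secrete antibody, were sorted apart. No cells cultured without LPS were analysed here, so effects of LPS and of culture cannot be told apart. Per the study's methods, cells for culture were isolated by negative selection, and not by the sort used for naive cells. The day 4 cultures were set up at a lower cell density than those of the undivided cells. Effects of isolation and of density cannot be told apart from those of stage either. How many mice gave each library is not given in the sources used here, and p-values measure the spread between these libraries.

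These factors divide the work of keeping a cell a B cell. Ebf1 and Pax5 set up and hold the B lineage program, switching on genes such as those of the antigen receptor complex and, in the case of Pax5, holding down genes of other lineages and of the plasma cell. Bach2 and Bcl6 are repressors that keep Prdm1, the gene of the plasma cell factor Blimp-1, switched off. Spi-B (Spib), PU.1 (Spi1) and Ets1 share the ETS DNA-binding domain. Spi-B and PU.1 bind closely similar sites, often together with Irf4 or Irf8, and Ets1 is known to restrain the formation of antibody-secreting cells. Aiolos (Ikzf3) is the lymphoid relative of Ikaros. Oct-2 (Pou2f2) binds the octamer element of immunoglobulin promoters, and Pou2af1 encodes OCA-B, the coactivator that Oct-2 and its relative Oct-1 recruit there. Blimp-1 is known to repress several of these genes as plasma cells form.

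Total counts per library ran from 23026619, in the first replicate at 3 h, to 60585587. Levels are given as RPKM, reads per kilobase of the deposited gene length and per 1e6 counts, with library sizes scaled by TMM to correct for a few abundant transcripts. The lowest count of any of the 10 genes in any library was 176, of Spib in a plasmablast library, so none was near the limit of detection. Replicates differed least in expanded cells and most at 3 h, where the SD over all tested genes of their log2 ratio was 0.30 and 0.53. All 6 B cell markers looked at (Cd79a, Cd79b, Ms4a1, Cd22, Cd74 and Ptprc) were at or above 1 CPM (counts per 1e6 counts of the library) in every stage. Their level was not constant. Their sum was 35574 and 37977 CPM in naive cells, 7731 and 8143 CPM at 10 h and 8727 and 8778 CPM in plasmablasts. The naive libraries also held RNA of other blood cells, with a summed level of 12 myeloid markers of 138 and 301 CPM in the 2 libraries, against 6.30 and 8.85 CPM at 3 h. The summed level of 5 erythroid markers was 146 and 196 CPM in naive cells and at most 2.11 CPM in any later library.

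By the rule given below, 8 of the 10 genes were called below their naive level in plasmablasts (23.4% of all tested genes were). Called above it was 1, Pou2af1 (26.6% of all genes were). Pou2f2 was below it by the F-test only. Ets1, Ikzf3 and Pax5 were called down within 3 h, where 24.3% of all genes were. Ebf1, Bach2, Bcl6, Spib and Spi1 were called down between 3 h and 10 h, where 13.4% were. The calls of Pax5, Ebf1, Bach2 and Spi1 at these steps did not stand under every alternative tried. Pou2af1 fell at both steps by the F-test only. Of the genes with a called fall, Spib, Pax5 and Ebf1 had their largest fall between expanded cells and plasmablasts, of 45.2-fold, 11.0-fold and 2.40-fold. Both populations were sorted on day 4, so this step, called the last below, compares populations of the same day and not times. The sort used CD22, whose gene is among those known to need Pax5 or Ebf1, and its part in these falls was not tested. A gene was called differentially expressed where edgeR's glmTreat, which tests for a change beyond 1.5-fold, gave a Benjamini-Hochberg adjusted p under 0.05 over all tested genes. The quasi-likelihood F-test, which asks for a change of any size, is named where it is used.

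From naive cells to 3 h, 3 of the 10 genes were called down, where 24.3% of all tested genes were called down, and 1 was called up, where 21.0% were called up. The one that rose was Pou2f2. From 3 h to 10 h, 5 genes were called down against 13.4% of all genes, and 0 were called up against 17.4%. This was the step with the most falls in the main fit, by 5 against 4 at the last step, and the call of Ebf1 was lost in 16 of 23 alternatives. When library size alone replaced TMM, 2 falls remained here and the last step had more. Fewer also remained here than at the last step without the first replicate at 3 h, the shallowest library. From 10 h to 33 h, 1 gene fell, Bcl6 (4.45% of all genes were called down), and 1 rose, Pou2af1 (10.1% called up). Without the second 33 h library only Bcl6 was called. From 33 h to expanded cells, Bach2 and Bcl6 fell (3.67% called down) and Pou2af1 rose (7.00% called up). Without the second library at 3 h or the second at 33 h, 5 genes were called at this step, with Pax5 and Spib added to the falls. From expanded cells to plasmablasts, 4 genes fell, Pax5, Ebf1, Bach2 and Spib (12.2% called down), and Pou2af1 rose (14.0% called up). The F-test, for a change of any size, called 7, 7, 5, 8 and 8 of the 10 genes at these 5 steps in turn, where it called 71.0%, 62.3%, 45.4%, 39.8% and 57.0% of all genes.

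**Figure D1:**
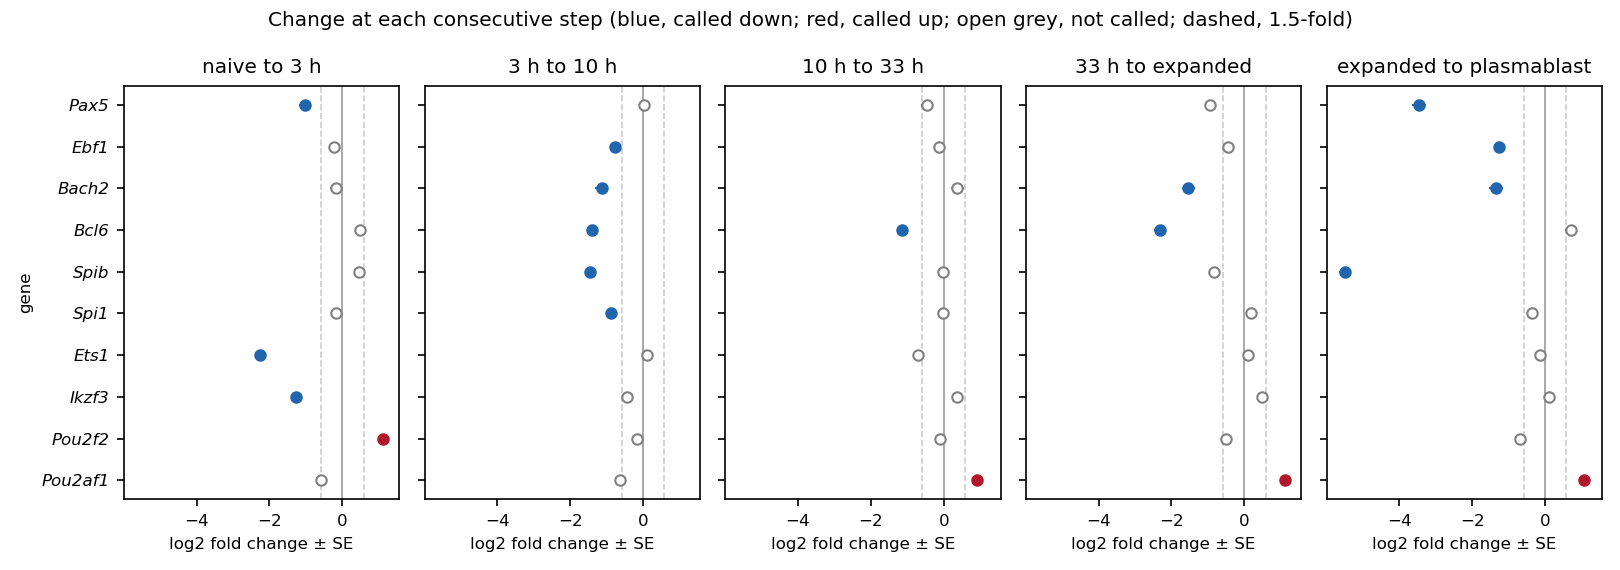
Each panel is 1 step between consecutive stages, with the log2 fold change of each gene ± its standard error (SE) on the x axis and the gene on the y axis; filled blue points were called down, filled red points called up, open grey points not called, and dashed lines mark 1.5-fold. The blue points sit at Pax5, Ets1 and Ikzf3 at 3 h, at Ebf1, Bach2, Bcl6, Spib and Spi1 at 10 h, at Bcl6 at 33 h, at Bach2 and Bcl6 in expanded cells, and at Pax5, Ebf1, Bach2 and Spib in plasmablasts.

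The split of calls over all genes moved with the scaling. Scaled by library size alone, the median change of all genes moved to 0.35 on the log2 scale at 3 h to 10 h and to -0.38 at expanded cells to plasmablasts. The calls over all genes then split into 1004 down and 3434 up at the former step, in place of 1710 and 2222, and into 2961 down and 1189 up at the latter, in place of 1554 and 1790. At naive to 3 h they were 3724 down and 2092 up, in place of 3106 and 2682. At the last step the calls among the 10 genes then became 5 down and 0 up, as Pou2af1 (adjusted p = 0.077) was lost and Pou2f2 was called down. Neighbouring steps share the libraries of the stage between them, so a high or low library at 1 stage moves both.

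Set against the naive libraries, which all of the next comparisons share, 9 genes were lower and 1 higher at 10 h (19.9% and 19.4% of all genes were called down and up), 8 and 1 at 33 h (20.7% and 22.3%), 8 and 1 in expanded cells (22.2% and 25.0%), and 8 and 1 in plasmablasts (23.4% and 26.6%). Taking the start of a lasting loss as the stage from which a gene was called below naive there and at every later stage, Pax5, Ets1 and Ikzf3 were lost from 3 h, and Ebf1, Bach2, Bcl6, Spib and Spi1 from 10 h. Some of the calls behind this order did not stand under every alternative tried. These were Pax5 at 3 h and 10 h, Bcl6 at 10 h, Bach2 at 33 h and Ikzf3 in plasmablasts. The stage at which the mean RPKM went under 50% of naive and stayed there gave another order. It was 3 h for Ets1, 10 h for Ebf1 and Spib, 33 h for Pax5 and Bcl6, the expanded stage for Bach2 and the plasmablast stage for Spi1. Spib lay on that line at 10 h (50.0%) and 33 h (49.5%), as did Ebf1 at 10 h (49.9%) and Pax5 at 3 h (49.1%) and 10 h (50.4%). Ikzf3 dropped under it from 3 h to 33 h and returned to 55.9% in expanded cells. In plasmablasts the remaining share of the naive level was 0.620% for Spib, 1.76% for Pax5, 7.12% for Bach2, 7.84% for Bcl6, 13.5% for Ets1, 14.0% for Ebf1, 42.5% for Spi1, 59.9% for Ikzf3, 79.2% for Pou2f2 and 360% for Pou2af1. In a bulk sample, fewer cells with a transcript and less of it per cell cannot be told apart.

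**Figure D2:**
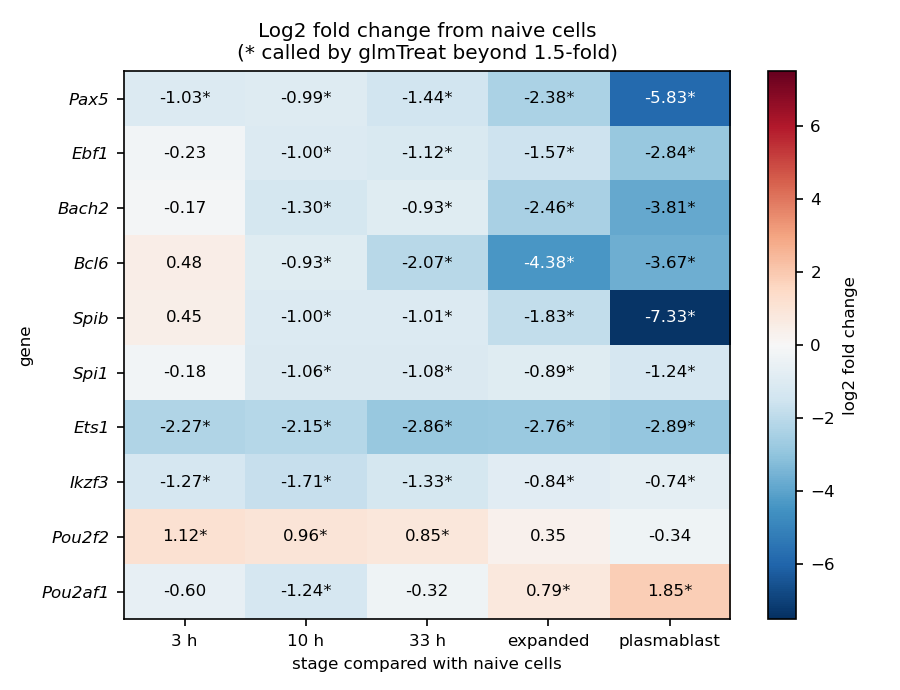
Log2 fold change from naive cells (colour and printed value) for each gene (rows) at each later stage (columns), with an asterisk where glmTreat called the gene. Spib at -7.33 and Pax5 at -5.83 in plasmablasts are the darkest cells, Ets1 stays between -2.15 and -2.89 throughout, and Pou2f2 and Pou2af1 are the only rows with calls above 0.

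The 250 bases before the start of Spib, Pax5 and Pou2af1 are shown because these were the pair with the largest falls and the only gene called up by glmTreat at the last step. Sequences are from RefSeq on GRCm38.p6. The set of promoter entries used here held 7 of the 10 genes and lacked Spi1, Ets1 and Ikzf3. Capitals mark a match to 1 of 7 short motifs searched on both strands, and the last base printed is the one before the start of the promoter entry. For Spib that start lies inside the gene bounds given below, so the end of its window overlaps them.
Pax5, chr4:44710695-44710944, minus strand: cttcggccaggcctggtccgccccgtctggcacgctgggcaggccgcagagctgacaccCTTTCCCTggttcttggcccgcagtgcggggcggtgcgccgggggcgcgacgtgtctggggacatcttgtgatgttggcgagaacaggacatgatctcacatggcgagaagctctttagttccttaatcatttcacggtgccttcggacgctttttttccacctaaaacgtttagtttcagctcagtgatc
Spib, chr7:44532072-44532321, minus strand: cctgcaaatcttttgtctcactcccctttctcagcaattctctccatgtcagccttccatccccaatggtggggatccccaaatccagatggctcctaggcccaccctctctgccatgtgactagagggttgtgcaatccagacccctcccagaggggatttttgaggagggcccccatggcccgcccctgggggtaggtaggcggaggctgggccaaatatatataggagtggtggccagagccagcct
Pou2af1, chr9:51213440-51213689, plus strand: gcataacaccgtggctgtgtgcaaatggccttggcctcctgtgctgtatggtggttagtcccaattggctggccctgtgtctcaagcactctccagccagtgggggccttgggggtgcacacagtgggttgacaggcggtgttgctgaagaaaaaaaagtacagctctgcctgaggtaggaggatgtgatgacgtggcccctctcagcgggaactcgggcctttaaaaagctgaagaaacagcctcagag
The motifs were the octamer ATGCAAAT, the ETS element of PU.1 and Spi-B GAGGAAGT, the Blimp-1 element AGNGAAAG, the EBF element TCCCNNGGG, the joint ETS and IRF element GGAANNGAA, the kappaB element GGGACTTTC and the E box CAGGTG. They occur in 1.6%, 2.44%, 7.3%, 5.6%, 6.99%, 0.289% and 17.2% of the 32851 promoter windows of the table, and matches can overlap, as those to the Blimp-1 and the joint ETS and IRF elements do in the Bach2 window. The letters were settled after the windows had been seen. The Pax5 window held a match to the Blimp-1 element, on the opposite strand, from 191 to 184 bases before the start. The Spib and Pou2af1 windows held none of these letters. A match is a description of letters and was not tested as a site.

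Pax5 (Entrez 18507, mm10 chr4:44524748-44710694), the factor of B lineage commitment, stood at 407 and 385 RPKM in the 2 naive libraries. It was at 164 and 225 after 3 h of LPS, 184 and 216 after 10 h, 168 and 123 after 33 h, 77.2 and 75.4 in the expanded population and 7.53 and 6.42 in plasmablasts. Naive cells lay above all other stages, 3 h overlapped with 10 h and with 33 h, and expanded cells and plasmablasts each lay below with no overlap. Its first fall, to 3 h, was 2.04-fold (log2 fold change -1.03, SE 0.16, adjusted p = 0.006), a call that was lost without the first 3 h library (adjusted p = 0.069). The next 2 steps were not called by glmTreat, with log2 fold changes of 0.04 to 10 h and -0.46 to 33 h, the latter a fall by the F-test (adjusted p = 0.037). The step to expanded cells, -0.93, missed the threshold (adjusted p = 0.062) but passed the F-test. The last step was the largest, at -3.45 (SE 0.19, adjusted p = 8.4e-08), and kept its call under every alternative tried.

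Ebf1 (Entrez 13591, chr11:44618100-45008096), which opens B lineage enhancers early in B cell development, went down in smaller steps. Its RPKM was 83.1 and 84.0 in naive cells, 75.1 and 67.0 in the 3 h libraries, 40.5 and 43.0 in the 10 h ones, 42.5 and 34.4 in the 33 h ones, 28.8 and 27.5 in the expanded population and 11.3 and 12.1 in plasmablasts. Only 10 h and 33 h overlapped. The fall from 3 h to 10 h was 1.70-fold (log2 fold change -0.77, SE 0.10) and lay just past the threshold (adjusted p = 0.047), which 16 of 23 alternatives took away, whereas the change from naive to 10 h (from 83.5 to 41.7 RPKM, adjusted p = 6.2e-04) was called under all 21 tried. The step to expanded cells, -0.45, passed the F-test only. The last step was 2.40-fold (-1.27, SE 0.11, adjusted p = 3.6e-05). Plasmablasts thus held 14.0% of the naive Ebf1 level beside 1.76% for Pax5.

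Bach2 (Entrez 12014, chr4:32238413-32586109), a repressor of Prdm1 that is tied to heme and oxidative stress, had 3 separate falls. Its RPKM was 37.8 and 36.8 in naive cells, 40.7 and 25.8 after 3 h of LPS, 14.3 and 16.1 after 10 h, 22.0 and 17.2 after 33 h, 6.83 and 6.69 in the expanded population and 2.92 and 2.39 in plasmablasts. The 3 h libraries lay on either side of the naive ones, and no other neighbours in the order of levels overlapped. The falls were 2.19-fold to 10 h (log2 fold change -1.13, SE 0.18, adjusted p = 0.0065), 2.90-fold from 33 h to expanded cells (-1.54, SE 0.18, adjusted p = 9.5e-04) and 2.55-fold to plasmablasts (-1.35, SE 0.19, adjusted p = 0.0017). The first of them was lost without the first 3 h library and with library size alone, and the other 2 under no alternative. Between 10 h and 33 h the level did not fall, with a log2 fold change of 0.37 (adjusted p = 1). The antisense gene Bach2os shares 537 exon bases with Bach2, and as strand use in counting is not given in the sources used here, its reads could be among these counts.

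Bcl6 (Entrez 12053, chr16:23965050-23988866), the repressor of germinal centre B cells, was the only one of the 10 with its lowest level in expanded cells. The libraries held 32.6 and 38.7 RPKM in naive cells, 50.9 and 48.6 in the 3 h libraries, 17.2 and 20.2 in the 10 h ones, 9.92 and 7.00 in the 33 h ones, 1.77 and 1.65 in the expanded population and 2.91 and 2.68 in plasmablasts. No neighbouring stages overlapped. The rise to 3 h, 1.39-fold, was called by the F-test and not beyond 1.5-fold. Then came 3 falls in a row, of 2.66-fold to 10 h (log2 fold change -1.41, SE 0.14, adjusted p = 7.4e-05), 2.20-fold to 33 h (-1.14, SE 0.15, adjusted p = 0.0028) and 4.96-fold to expanded cells (-2.31, SE 0.16, adjusted p = 3.8e-06). From naive to expanded cells Bcl6 was 20.8-fold lower, more than any other of the 10 genes. At the last step it went the other way, from 1.71 to 2.80 RPKM (0.71, SE 0.17), which missed the threshold (adjusted p = 0.27) and passed the F-test.

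**Figure D3:**
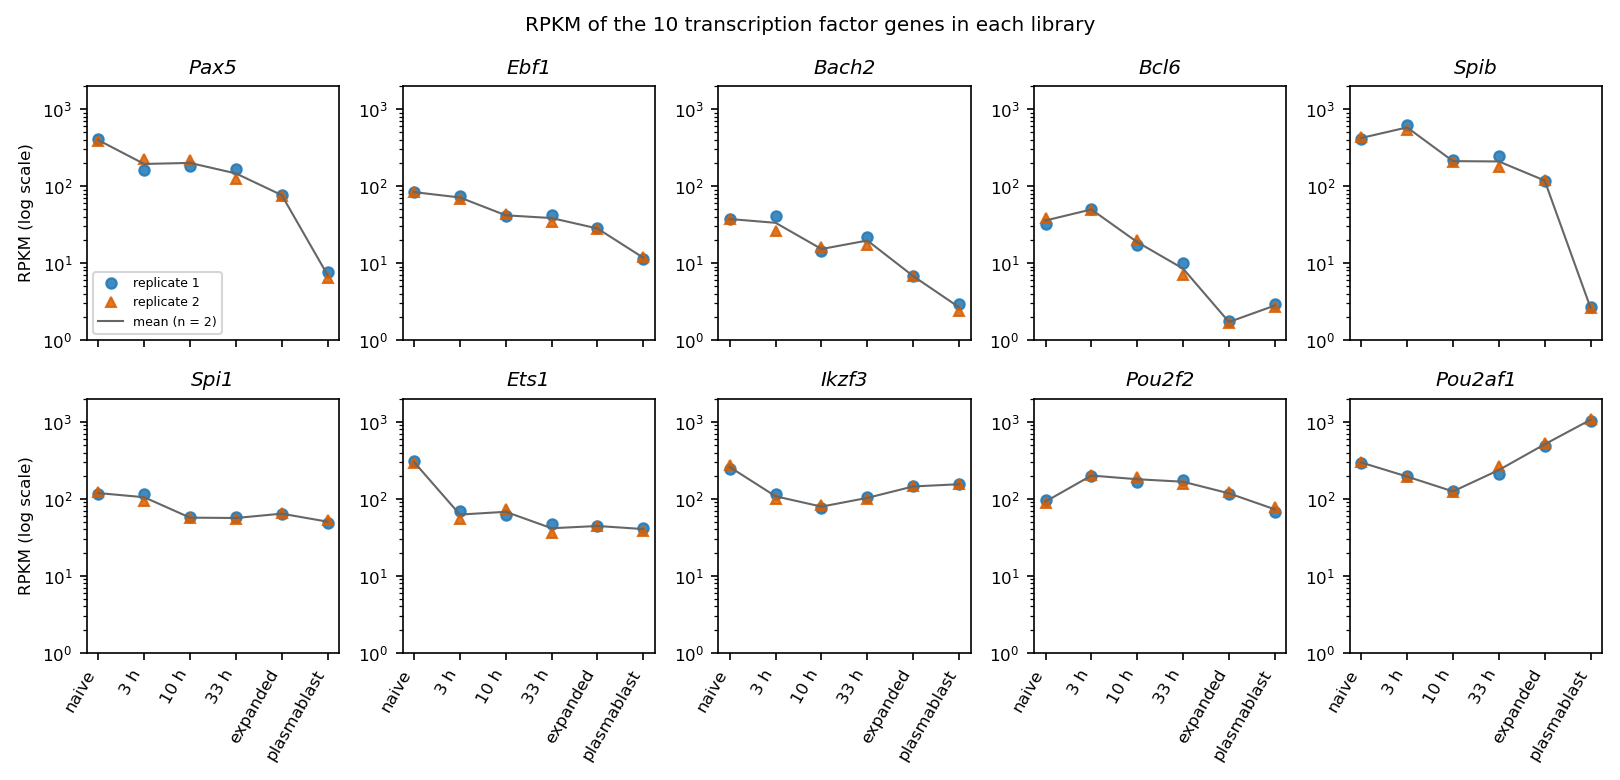
RPKM on a log scale (y axis) of each gene in each library over the 6 stages (x axis), with circles for replicate 1, triangles for replicate 2 and a line through the means of 2. Pax5 and Spib end in a steep drop to 6.97 and 2.62 RPKM, Bcl6 reaches its lowest mean of 1.71 in expanded cells, Ets1 drops to 62.5 by 3 h and then stays low, and Pou2af1 climbs to 1067.

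Spib (Entrez 272382, chr7:44525995-44532087), the lymphoid ETS factor of antigen receptor signalling, had the largest fold loss of the 10, and on the log2 scale most of it at the last step. Its RPKM was 415 and 429 in naive cells and 625 and 532 at 3 h, where the F-test called a rise of 1.37-fold. The 10 h libraries held 216 and 206 RPKM, those at 33 h 243 and 176, expanded cells 118 and 119, and plasmablasts 2.67 and 2.57. Only 10 h and 33 h overlapped. The fall to 10 h was 2.74-fold (log2 fold change -1.45, SE 0.12, adjusted p = 1.6e-05) and the one to expanded cells 1.77-fold (-0.82), which passed the F-test but not glmTreat (adjusted p = 0.089). The last step was 45.2-fold (-5.50, SE 0.15, adjusted p = 2.1e-10), the largest single step of any of the 10 genes. It rests on 13156 and 11024 counts in expanded cells and 176 and 203 in plasmablasts.

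Spi1 (Entrez 20375, chr2:91082374-91115759), the gene of PU.1, behaved unlike Spib. It stood at 117 and 121 RPKM in naive cells, 115 and 94.4 after 3 h of LPS, 57.6 and 56.5 after 10 h, 58.4 and 54.3 after 33 h, 63.3 and 65.2 in the expanded population and 48.3 and 52.6 in plasmablasts. The single step called by glmTreat was the fall from 3 h to 10 h, of 1.84-fold (log2 fold change -0.88, SE 0.10, adjusted p = 0.0059), a call lost in 3 of 23 alternatives, among them leaving out the first 3 h library and library size alone. The fall from naive to 10 h, of 2.08-fold (-1.06, adjusted p = 1.7e-04), was called under every alternative tried. The last step, -0.35, was called down by the F-test (adjusted p = 0.0098) and not by glmTreat (adjusted p = 1). In naive cells Spib was above Spi1 (422 against 119 RPKM), and in plasmablasts Spi1 was above Spib (50.5 against 2.62). PU.1 is also made by myeloid cells. The summed level of the 12 myeloid markers was higher in the naive libraries than at any later stage, where it was between 6.30 and 49.3 CPM. Single markers differed, as Itgam, Adgre1, Cd68, Ly6c2 and Ms4a7 each had their highest mean level at a later stage. Over the step from 3 h to 10 h the myeloid sum went from 6.30 and 8.85 CPM to between 11.3 and 17.4. The part of these cells in the Spi1 levels was not tested.

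Ets1 (Entrez 23871, chr9:32636241-32757820) fell at the first step and was then held at a low level. It fell from 307 and 294 RPKM in naive cells to 70.4 and 54.7 at 3 h, 4.81-fold lower (log2 fold change -2.27, SE 0.13, adjusted p = 9.1e-08). The 10 h libraries held 62.6 and 73.2 RPKM, those at 33 h 46.8 and 36.2, expanded cells 44.3 and 44.5, and plasmablasts 42.4 and 38.6. No later step was called by glmTreat. The nearest was that to 33 h, at -0.71 (adjusted p = 0.29), which passed the F-test and, without the first 33 h library, also glmTreat (adjusted p = 0.045). The 33 h values overlapped with those of expanded cells and of plasmablasts, and the last 2 did not overlap with each other.

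Ikzf3 (Entrez 22780, chr11:98464610-98546031) fell as early and then partly came back. It went from 246 and 272 RPKM in naive cells to 114 and 101 at 3 h, 2.41-fold lower (log2 fold change -1.27, SE 0.09, adjusted p = 2.2e-06), and to 76.4 and 82.3 at 10 h, a further fall by the F-test only (-0.44). The 33 h libraries held 107 and 98.4 RPKM, expanded cells 145 and 145, and plasmablasts 156 and 154. The rises to 33 h (0.37) and to expanded cells (0.49) were called by the F-test and not beyond 1.5-fold, and the last step was 0.10. The lasting difference between naive cells and plasmablasts, 1.67-fold, had an adjusted p of 0.029 and was lost in 4 of 21 alternatives, among them leaving out the second naive library or either plasmablast library. Ets1 and Ikzf3 are also made by T cells. The summed level of 10 T cell markers was 66.8 and 71.5 CPM in naive cells and 22.8 and 30.0 CPM at 3 h, of which Lck alone made up 61.9 CPM in naive cells on average, and 7 of the 10 markers were under 1 CPM there. Their part in the fall of Ets1 and Ikzf3 was not tested.

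Pou2f2 (Entrez 18987, chr7:25087350-25180797), the gene of Oct-2, was the only one of the 10 to rise beyond 1.5-fold on activation. It went from 95.7 and 88.8 RPKM in naive cells to 198 and 204 at 3 h, 2.18-fold higher (log2 fold change 1.12, SE 0.10, adjusted p = 4.9e-05). The 10 h libraries held 168 and 192 RPKM, those at 33 h 177 and 157, expanded cells 114 and 121, and plasmablasts 67.8 and 78.4. The 10 h and 33 h libraries overlapped, and the other neighbours in the order did not. No later step was called, and the one to 10 h, -0.16, turned to 0.17 with library size alone. The last 2 steps, at -0.51 and -0.68, passed the F-test. The plasmablast level, 79.2% of naive, was below it by the F-test (adjusted p = 0.0075). It was not called by glmTreat (log2 fold change -0.34, adjusted p = 1).

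Pou2af1 (Entrez 18985, chr9:51213690-51240079), the gene of OCA-B, dipped and then climbed. It held 294 and 299 RPKM in naive cells, 197 and 193 in the 3 h libraries, 128 and 123 in the 10 h ones, 210 and 264 in the 33 h ones, 494 and 530 in the expanded population and 1037 and 1097 in plasmablasts. No stages overlapped. At 10 h it was 2.37-fold below naive (log2 fold change -1.24, SE 0.10, adjusted p = 9.9e-06), reached through steps of -0.60 and -0.64 that were each called by the F-test alone. It then rose 1.89-fold to 33 h (0.92, SE 0.10, adjusted p = 0.0052), 2.16-fold to expanded cells (1.11, SE 0.10, adjusted p = 3.3e-04) and 2.08-fold to plasmablasts (1.06, SE 0.10, adjusted p = 2.6e-04). The rise to 33 h was lost without the second 33 h library (adjusted p = 0.064). With library size alone, the rise to plasmablasts was not called by glmTreat (adjusted p = 0.077). Plasmablasts held 3.60-fold the naive level (1.85, SE 0.10, adjusted p = 2.2e-08).

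For each gene it was tested whether the change at the last step differed from the change from naive to expanded cells. The difference between these 2 changes compares their sizes and does not give the time or order of a loss. By the F-test on that difference, the last step was the lower of the 2 for 3 genes (33.6% of all genes) and the higher for 5 (28.6%). The last step was lower for Spib, by a log2 difference of -3.66 (SE 0.23, adjusted p = 3.0e-08), for Pax5, -1.08 (SE 0.30, adjusted p = 0.0065), and for Pou2f2, -1.03 (SE 0.17, adjusted p = 1.4e-04). Spib fell by 1.83 before the last step and by 5.50 at it, and Pax5 by 2.38 and then by 3.45. The last step was higher, so the earlier fall the deeper, for Bcl6 (5.08, SE 0.30, adjusted p = 3.5e-08), Ets1 (2.62, SE 0.23, adjusted p = 1.5e-06), Bach2 (1.11, adjusted p = 0.012), Ikzf3 (0.94, adjusted p = 1.6e-04) and Spi1 (0.54, adjusted p = 0.016). The calls of Bach2 and Spi1 were lost without either expanded library and with library size alone. Ebf1 (0.31, SE 0.18, adjusted p = 0.17) and Pou2af1 (0.27, SE 0.17, adjusted p = 0.18) were not called, which does not show that their 2 changes were equal, and both were called when only the libraries compared were fitted (adjusted p = 0.018 and 0.012). Because both changes use the expanded libraries, an error in these moves them in opposite directions.

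**Figure D4:**
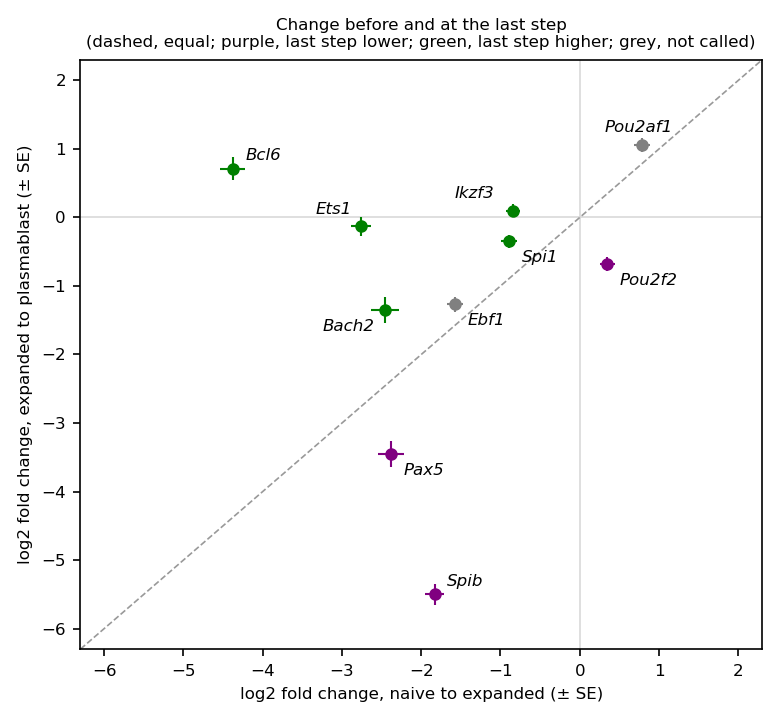
Log2 fold change ± SE from naive to expanded cells (x axis) against that from expanded cells to plasmablasts (y axis), 1 point per gene. The dashed line marks equal changes. Purple points had a lower change at the last step than before it, and green points a higher one. Grey points were not called. Spib lies lowest at -1.83 and -5.50 and Bcl6 farthest left at -4.38 and 0.71.

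Prdm1, Irf4 and Xbp1, the factors that drive the plasma cell program, were set beside them. Prdm1 was at 0.603 and 0.475 RPKM in naive cells, 1.40 and 1.66 after 3 h of LPS, 4.32 and 5.40 after 10 h, 6.42 and 11.5 after 33 h, 44.6 and 48.4 in the expanded population and 105 and 117 in plasmablasts. It rose 2.84-fold to 3 h (adjusted p = 0.0059), and then on the log2 scale by 1.65 to 10 h (SE 0.25, adjusted p = 0.0015), by 2.38 into expanded cells (SE 0.21, adjusted p = 7.9e-05) and by 1.26 into plasmablasts (SE 0.21, adjusted p = 0.0064). The step to 33 h, 0.88, was called by the F-test only. Spib at 118 RPKM and Pax5 at 76.3 were still present in expanded cells next to a mean Prdm1 of 46.5. Irf4 rose 3.53 on the log2 scale to 3 h (from a mean of 53.2 to 615 RPKM), fell back by 2.22 to 10 h, and was at 266 in plasmablasts. Xbp1 went from 70.1 RPKM in naive cells to 456 in expanded cells and 2332 in plasmablasts. Whether a library is a mix of cells with high Prdm1 and cells with high Pax5 cannot be read from bulk RNA.

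Of 15 genes known to need Pax5 or Ebf1, all tested, 12 were below naive in expanded cells, where Pax5 stood at 76.3 RPKM. At 3 h, 8 were called down and 2 up (24.3% and 21.0% of all genes), and the median log2 fold change was -0.90 beside -0.03 for all tested genes. Against naive, those 12 were down and 0 up in expanded cells (22.2% and 25.0% of all genes, median -1.77 beside 0.03) and 12 down and 1 up in plasmablasts (23.4% and 26.6%, median -1.96 beside 0.02). At the last step itself, 5 fell (Cd72, Fcer2a, Ciita, Cd22 and Cd40) and 2 rose (Cr2 and Fcrla), where 12.2% and 14.0% of all genes did, with a median of -0.50 beside -0.05, and 8 fell with library size alone. These 2 populations were sorted on CD22, so the fall of Cd22 from 98.7 to 0.399 RPKM is not independent of the sort. The part of the sort in it was not tested. Cd22 is nevertheless counted among these 5, among the 12 down in plasmablasts and in the medians. Ciita, the master regulator of class II histocompatibility genes, fell from 28.2 to 0.821 RPKM (-5.11, SE 0.27, adjusted p = 1.7e-07). The antigen receptor genes Cd79a and Cd79b, the most abundant of the list, were at 765 and 745 RPKM in plasmablasts and changed at that step by -0.50, called down by the F-test and not by glmTreat, and by -0.07, called by neither. Cd79a had its lowest level, 459 RPKM, at 10 h. Ms4a1, the gene of CD20, went from 994 RPKM in naive cells to 267 in plasmablasts, and the chemokine receptor gene Cxcr5 from 448 to 1189 at 3 h and then to 60.9.

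Genes known to be repressed by Bcl6, Bach2 or Pax5 (14 genes, all tested) were mostly up by 3 h, when 11 were called up and 0 down by glmTreat (21.0% and 24.3% of all genes; 2 down by the F-test, Xbp1 and Cd28), with a median log2 fold change of 2.34 beside -0.03 for all genes, while Bcl6, Bach2 and Pax5 were at 139%, 89.1% and 49.1% of their naive level. In expanded cells 12 were above naive and 1, Gpr183, below (25.0% and 22.2% of all genes, median 2.76 beside 0.03). At the step from 33 h to expanded cells, with Bach2 and Bcl6 both down, 7 rose and 0 fell (7.00% and 3.67% of all genes, median 1.32 beside -0.02). At the last step 4 rose (Prdm1, Xbp1, Jchain and Cd28) and 3 fell (Id2, Ccnd2 and Cd80), beside 14.0% and 12.2% of all genes, with a median of 0.36 beside -0.05. Jchain, which links secreted IgM and IgA, went from 330 to 7986 RPKM there, and Cd28, a costimulatory receptor gene that Pax5 is known to hold down, from 0.812 to 21.7 (4.75, SE 0.25, adjusted p = 6.5e-08). Ccnd2, a G1 cyclin, peaked at 297 RPKM at 3 h, as did the activation marker Cd69 at 267. The undivided cells were sorted on CD69, so the level of Cd69 there is not independent of the sort, whose part in it was not tested. These counts do not show which factor moved a gene.

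**Figure D5:**
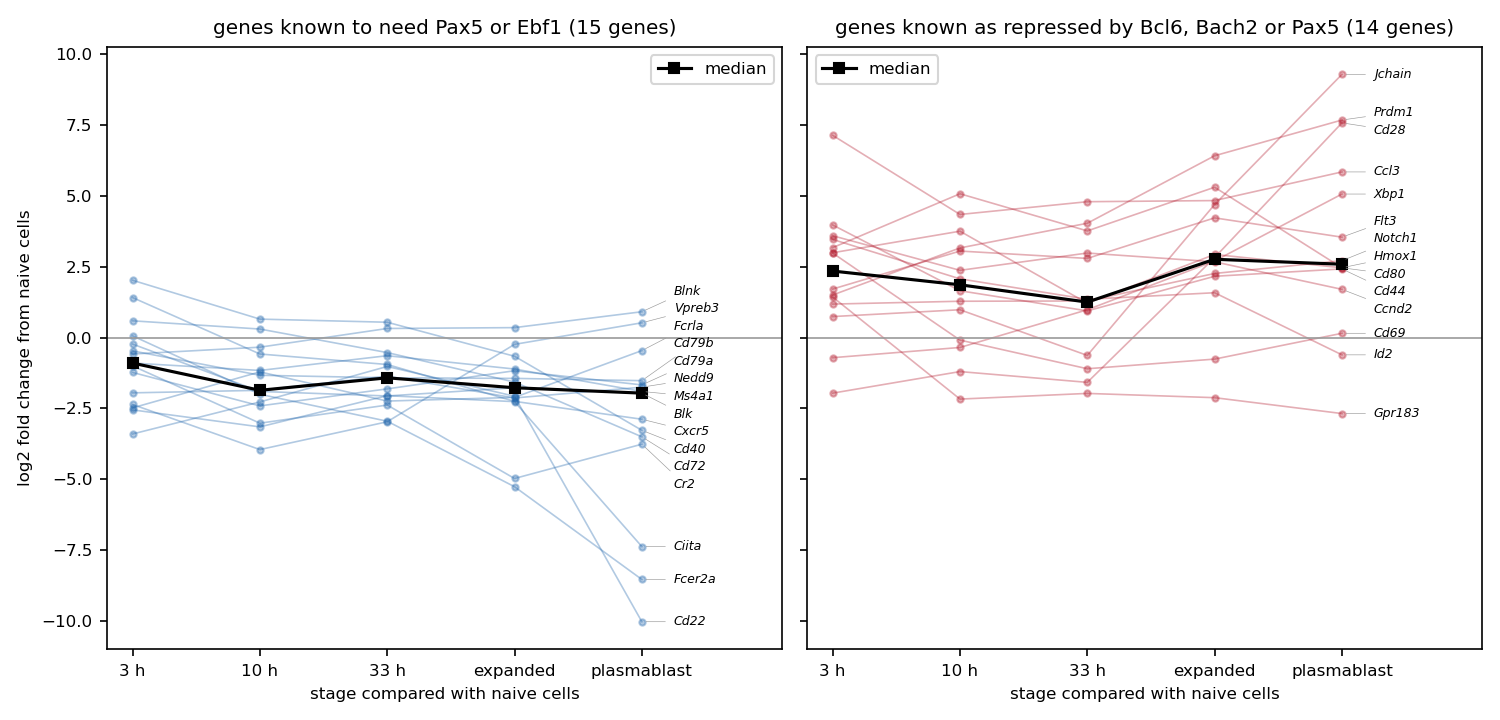
Log2 fold change from naive cells (y axis) at each later stage (x axis) for the genes known to need Pax5 or Ebf1 (left, 15 genes) and those known as repressed by Bcl6, Bach2 or Pax5 (right, 14 genes), with thin lines for genes and black squares for the median. The left median runs from -0.90 at 3 h to -1.96 in plasmablasts, and the right one is above 0 at every stage, at 2.34 at 3 h and 2.59 in plasmablasts.

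Among 18 other transcription factors of the B lineage, 7 were called down and 5 up at 3 h (24.3% and 21.0% of all genes), and 7 down and 0 up at the last step (12.2% and 14.0%), the 7 being Bcl11a, Irf8, Runx3, Tcf3, Zeb2, Klf2 and Id3, with a median of -0.44 beside -0.05. Klf2, a quiescence factor, was at 498 RPKM in naive cells, 58.2 in expanded cells and 1.12 in plasmablasts, so like Pax5 it fell both at the first step (-2.62) and at the last (-5.70, SE 0.33, adjusted p = 1.5e-07). Irf8, which partners PU.1 and Spi-B, peaked at 452 RPKM at 3 h and fell at the last step from 211 to 79.7. Ikzf1, the gene of Ikaros, fell at 3 h with Ikzf3, from 169 to 80.1 RPKM. Of 25 paralogs of the 10 genes, 17 passed the filter, with 4 down and 4 up at 3 h and 2 down and 3 up at the last step, shares near those of all genes (24.3% and 21.0% at 3 h, 12.2% and 14.0% at the last step). The ETS genes Elf1 and Fli1 fell at 3 h with Ets1, to 38.3 from 80.3 and to 26.3 from 81.6 RPKM, and Elf2 did not (40.4 and 42.5 RPKM).

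Across the 12 libraries, the log2 CPM of Pax5 and Spib had a Pearson correlation of 0.97 and that of Ebf1 and Bach2 0.98, while Pax5 and Ikzf3 had -0.03 and Pax5 and Pou2af1 -0.84. The libraries come in 6 stages of 2, so these values describe 6 profiles. Among 8270 genes with a mean log2 CPM of at least 3, the pair most like each factor by this measure was Chd3 (0.991) and Usp25 (0.990) for Pax5, Foxk1 (0.995) and Clec2i (0.992) for Ebf1, Arhgap26 (0.995) and Dennd4c (0.986) for Bach2, Zbtb9 (0.993) and Socs5 (0.988) for Bcl6, and Tmem243 (0.993) and Tlr1 (0.992) for Spib. For the others it was Git2 (0.990) and Limd2 (0.985) for Spi1, Zfp398 (0.985) and Galnt4 (0.982) for Ets1, Acss1 (0.992) and Cpt1a (0.988) for Ikzf3, Rae1 (0.982) and Sf3b4 (0.982) for Pou2f2, and Ero1b (0.986) and Gdap2 (0.984) for Pou2af1. With Spearman's correlation only Arhgap26, Acss1 and Ero1b stayed among the pair.

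Levels can be compared between these genes only with care. The deposited length of Pax5, 1208 bases, is 15.1% of the 8004 exon bases that GENCODE M21 gives it, and the share was 37.6% for Ebf1, 44.8% for Pou2f2 and 65.5% for Spi1, whereas the other 6 were between 93.2% and 112%. Reads outside the deposited exons were not counted, and comparisons of a gene between stages all use the same length. Besides Bach2, Bcl6 shares 21 exon bases with Gm37419 on the opposite strand and Pou2f2 35 with Mir6537, and the other 7 share none.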

How the data were processed

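RNA-Seq of 12 libraries, 2 for each of 6 stages, was analysed from the deposited counts per gene. Per the study's methods the authors made TruSeq RNA libraries (polyA RNA per the labels), read 81 bases from both ends on a NextSeq 500, mapped them on mm10 (Rsubread) and obtained gene counts by featureCounts with the Entrez annotation built into it. The submitters' processing notes also name CASAVA 1.8.2. Strand setting and whether a pair counts as 1 or 2 are not given in the sources used here. The counts are neither normalized nor filtered, and the gene lengths come from the same table. Following the study's methods, X and Y, mitochondrial, ribosomal RNA and variable immunoglobulin genes and 1904 unmatched IDs were removed. The remaining 23722 genes took 84.1% to 90.6% of each library's counts. filterByExpr kept 12767.

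R 4.3.3 was used with edgeR 4.0.16 (TMM, robust quasi-likelihood fit, earlier method), limma 3.58.1 and DESeq2 1.42.0. All libraries entered a one-way layout on stage. glmTreat against 1.5-fold was the test, and the F-test was used for changes of any size and for the late against early change, all adjusted with the Benjamini-Hochberg method at 0.05. Standard errors are those of the fitted log2 fold changes. RPKM used the deposited length. Lists were described by counts and medians, with no set test, and by name the 4 members with the highest mean RPKM, together with genes whose calls a count of 7 or fewer spells out, which were chosen after their values were seen. The pair of genes most like each factor was taken by Pearson correlation of log2 CPM (prior count 2). 1 gene is not reported here and was left out of the lists. The 10 genes, the lists and the tests were chosen with earlier results of these data known. Scripts were tested on simulated data. The alternatives were DESeq2 size factors, library size alone, DESeq2's Wald test, other low-count filters, a replicate block, keeping the removed genes, fitting only the libraries compared, no fold threshold and leaving out each library. Hi-C data were not analysed here.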

Additional observations from a re-analysis of the deposited data

How the results depend on the processing

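Most calls of the 10 genes stood under the alternatives, and the weak ones are named in the report or below. Without a fold threshold, the F-test called 7 of the 10 genes at naive to 3 h, 5 at 10 h to 33 h, 8 at 33 h to expanded cells and 8 at expanded cells to plasmablasts, in place of 4, 2, 3 and 5. Library size alone in place of TMM left 2 at 3 h to 10 h in place of 5, and no filter on low counts gave 5 at 33 h to expanded cells in place of 3. Leaving out each library in turn gave 3 to 4 genes at naive to 3 h, 2 to 5 at 3 h to 10 h, 1 to 3 at 10 h to 33 h, 3 to 5 at 33 h to expanded cells and 5 each time at the last step. Against naive these fits gave 8 to 10 genes at 10 h, 8 to 9 at 33 h, in expanded cells and in plasmablasts, and 6 to 8 for the late against early change.

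Some calls against naive were lost under single alternatives. These were Pax5 at 10 h without the first 10 h library (adjusted p = 0.076), Bcl6 at 10 h in 3 of 21 alternatives (up to 0.1), Bach2 at 33 h in 4 (up to 0.2), Pou2f2 at 33 h with DESeq2's Wald test (0.11) and Pou2af1 in expanded cells in 3 (up to 0.28). The cause was not tested.

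Changes that turned in sign were small and were called in neither setting. With DESeq2's size factors and with its Wald test, Pax5 at 3 h to 10 h became -0.04, and Spib and Spi1 at 10 h to 33 h became 0.02, as both also did with no filter and with only the libraries compared. With library size alone, Pou2f2 became 0.17 at 3 h to 10 h, Ikzf3 -0.24 at the last step, and the late against early change -0.09 for Ebf1 and -0.12 for Pou2af1. Relative to the shift of the median gene under that scaling, Pou2f2 was at -0.18 and Ikzf3 at 0.14, as with TMM. When libraries were left out in turn, the values ran from -0.17 to 0.30 for Pax5 at 3 h to 10 h, from -0.53 to 0.10 for Bach2 at naive to 3 h, from -0.04 to 0.31 for Ets1 at 3 h to 10 h and from -0.08 to 0.30 at 33 h to expanded cells, from -0.28 to 0.03 for Ebf1 at 10 h to 33 h, and there from -0.26 to 0.21 for Spib and from -0.07 to 0.04 for Spi1.

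The replicate numbers are not tied to an animal or day, and deviations of same-numbered libraries had correlations from -0.14 to 0.08 over the 15 pairs of stages. A replicate block in the fit of all libraries gave 4 genes at 3 h to 10 h in place of 5, losing Ebf1, and changed no other call of the 10 genes. For 3 h to 10 h, where the correlation was -0.14, blocks were added after seeing the data with only those libraries: the block as numbered called 3 genes and the crossed block 4. With 2 libraries a stage, all p-values rest on a spread shared across genes and stages.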
